A study of Mus musculus with 7 samples.

Results

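Internal coding exon regions were the accessible regions of mouse liver that lay mostly inside protein-coding sequence and away from both ends of genes. Of the 55680 regions with counts, 219 had at least 50% of their length in GENCODE M21 coding sequence (CDS) while lying over 2000 bp from any transcription start site (TSS) and over 500 bp from the 3' end of any gene. They belonged to 210 genes, of which 9 held 2 regions each. ATAC-seq, which uses a transposase to cut and tag exposed DNA, had been run on liver of male C57BL/6N mice fed a standard diet without restriction. The young group held 3 samples from mice aged 3 months and the aged group 4 samples from mice aged 18 months. Neither group carried a treatment or an engineered allele. The series describes 3 aged animals, with 2 lobules of 1 animal entered as separate samples, without saying which ones, whereas the study's methods count 4 biological replicates. The p-values below take the aged samples as 4, and liver is a bulk tissue in which fewer cells of a type and less accessibility per cell cannot be told apart.

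Coding exons are mostly wrapped in nucleosomes, and accessible chromatin concentrates at promoters and at enhancers in introns and between genes. Some coding exons nevertheless hold binding sites for transcription factors beside their codons, and such exons can act as enhancers of their own or a neighbouring gene. Exons of developmental regulators can also lie within CpG islands, stretches of DNA that keep CpG dinucleotides and stay poor in nucleosomes.

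The definition favours long exons, since at least 50% of a region had to lie in CDS and the shortest region had 209 bp. The coding exon with the largest overlap had a median length of 641 bp, against 119 bp for all coding exons of the annotation, and 73 of the 219 regions lay in an exon of 1000 bp or more. By the transcript with the longest CDS, 118 regions lay in a middle coding exon, 75 in the last, 11 in the first and 15 in the only coding exon of the gene, so that the regions were internal by distance and not always by exon order. A single coding exon was touched by 190 regions, and up to 5 were touched by the other 29. Lengths ran from 209 to 2856 bp around a median of 538 bp, and 66 of the regions lay wholly inside CDS. Their GC content had a median of 56.5%, against 47.2% for the 17585 intronic and 47.5% for the 12909 intergenic regions at the same distances from gene ends, and 57.2% for the 15422 promoter regions (TSS ± 200 bp). The ratio of observed to expected CpG had a median of 0.391 in coding exon regions, between 0.198 in intronic and 0.646 in promoter regions.

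The sequences below were read from GRCm38 on the strand of the gene and cover the central 300 bp of each region. The first pair comes from the regions that gained accessibility in aged liver, with CDS in capitals and intron in lower case, so that the exon edges inside the accessible stretch can be seen. The Slc28a1 stretch (chr7:81164386-81164685, plus strand) covers the end of 1 coding exon, a short intron and much of the next exon, and the Rnft2 stretch (chr5:118236998-118237297, minus strand) runs across the 3' edge of an exon.
Slc28a1: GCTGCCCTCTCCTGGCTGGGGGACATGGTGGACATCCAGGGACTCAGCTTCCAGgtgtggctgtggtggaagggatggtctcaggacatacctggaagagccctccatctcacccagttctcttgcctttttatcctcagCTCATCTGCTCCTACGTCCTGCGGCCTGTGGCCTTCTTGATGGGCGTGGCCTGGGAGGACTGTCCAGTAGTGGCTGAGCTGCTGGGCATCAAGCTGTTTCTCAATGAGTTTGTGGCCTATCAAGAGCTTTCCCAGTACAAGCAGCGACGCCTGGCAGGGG
Rnft2: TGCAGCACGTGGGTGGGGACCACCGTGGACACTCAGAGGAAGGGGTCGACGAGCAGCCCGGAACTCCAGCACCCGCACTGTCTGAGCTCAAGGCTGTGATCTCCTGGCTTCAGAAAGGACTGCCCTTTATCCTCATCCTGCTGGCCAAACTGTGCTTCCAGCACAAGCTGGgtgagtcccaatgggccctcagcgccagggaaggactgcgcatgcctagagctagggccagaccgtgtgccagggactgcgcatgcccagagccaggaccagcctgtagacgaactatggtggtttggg

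The next sequences come from regions that lost accessibility and lie wholly inside CDS. In Zfp13 (chr17:23576600-23576899, minus strand) the capitals mark 2 matches to the DNA that encodes the conserved linker between neighbouring C2H2 zinc fingers. In Tbr1 (chr2:61811888-61812187, plus strand), Mzf1 (chr7:13043845-13044144, minus strand) and Muc6 (chr7:141638852-141639151, minus strand) the capitals mark CpG dinucleotides. These stretches show the span of CpG content among regions that moved the same way, with 49 CpG in Tbr1, 35 in Mzf1 and 3 in Muc6.
Zfp13: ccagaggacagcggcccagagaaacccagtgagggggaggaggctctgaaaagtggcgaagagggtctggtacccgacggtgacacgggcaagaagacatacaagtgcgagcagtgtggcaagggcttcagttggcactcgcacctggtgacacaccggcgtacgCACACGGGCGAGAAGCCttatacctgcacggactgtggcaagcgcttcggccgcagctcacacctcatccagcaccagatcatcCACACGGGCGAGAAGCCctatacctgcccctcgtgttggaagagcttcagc
Tbr1: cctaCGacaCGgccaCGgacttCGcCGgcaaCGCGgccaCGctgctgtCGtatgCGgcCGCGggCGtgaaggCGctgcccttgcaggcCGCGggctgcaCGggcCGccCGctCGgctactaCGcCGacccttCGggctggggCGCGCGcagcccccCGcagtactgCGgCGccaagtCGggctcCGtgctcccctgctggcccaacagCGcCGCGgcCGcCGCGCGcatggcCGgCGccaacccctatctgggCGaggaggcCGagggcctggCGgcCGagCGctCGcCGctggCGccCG
Mzf1: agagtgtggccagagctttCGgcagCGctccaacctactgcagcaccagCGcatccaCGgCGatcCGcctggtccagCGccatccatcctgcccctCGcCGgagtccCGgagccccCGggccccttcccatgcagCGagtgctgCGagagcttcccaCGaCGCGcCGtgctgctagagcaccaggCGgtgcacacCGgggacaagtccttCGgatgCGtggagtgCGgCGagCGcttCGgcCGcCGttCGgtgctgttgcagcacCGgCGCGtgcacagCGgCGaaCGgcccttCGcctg
Muc6: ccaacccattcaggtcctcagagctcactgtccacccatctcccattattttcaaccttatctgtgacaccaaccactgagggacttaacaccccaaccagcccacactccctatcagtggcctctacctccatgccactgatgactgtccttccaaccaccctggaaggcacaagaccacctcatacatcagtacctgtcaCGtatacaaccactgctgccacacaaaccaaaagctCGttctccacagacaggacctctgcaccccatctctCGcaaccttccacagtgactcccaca

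The authors deposited raw read counts, which summed over all regions to 4474652 to 25461110 per sample. The coding exon regions took 0.206% to 0.216% of the counts in young and 0.172% to 0.187% in aged samples, with a median count per region of 28 to 142 in young and 18 to 48 in aged samples. At least 10 reads in every sample were found in 146 of the 219 regions. Levels below are CPM, the counts scaled to library size with TMM factors, and levels of single regions are compared as CPM per kb of region. Where regions are ranked by log2 CPM, the rank follows the number of reads and so also the length, and the coding exon regions were shorter than all regions (median 538 against 869 bp).

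To ask how accessibility inside coding exons differed between young and aged liver, all 55680 regions were fitted together with edgeR's quasi-likelihood test. More coding exon regions fell than rose in aged liver. Regions had entered the table through peaks in at least 2 libraries, so that a weak region could enter through the young samples alone, of which replicate 2 was the deepest library of all. The part of this entry rule in the losses was not tested. An adjusted p under 0.05 was reached by 22 coding exon regions with lower accessibility, or 10.05% of them, where 3.30% of all regions passed in that direction. It was reached by 2 regions with higher accessibility, Slc28a1 and Rnft2, or 0.913%, where 2.44% of all regions passed. The split of higher to lower calls was 2 to 22 with TMM scaling and changed with the settings, for the coding exon regions and for all regions alike. It was 5 to 21 with DESeq2, whose size factors and test both differ (2.28% and 9.59%, against 4.96% and 3.47% of all regions) and 1 to 30 with total counts (0.457% and 13.7%, against 0.975% and 5.26%). It was 8 to 25 with offsets on GC content (3.65% and 11.4%, against 10.05% and 3.48%) and 2 to 4 with offsets on mean abundance (0.913% and 1.83%, against 0.480% and 0.758%). The median log2 fold change of the 219 regions, aged over young, was -0.24, against -0.04 over all regions, -0.09 for intronic, -0.07 for intergenic and 0.09 for promoter regions. Every aged sample lay below every young one at 51 coding exon regions (23.3%), where 11.6% of all regions behaved in this way. The opposite order was found at 12 of them (5.48%), against 10.2% of all regions. These shares describe the regions and are not tests of the group.

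**Figure D1:**
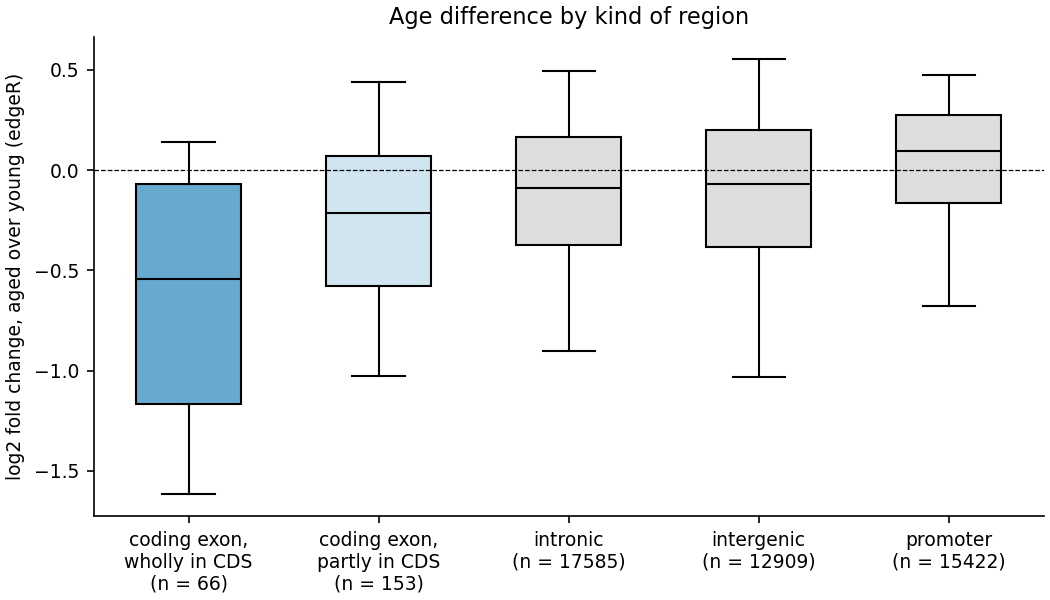
Log2 fold change of accessibility, aged over young (edgeR), for coding exon regions that lie wholly or partly in CDS and for intronic, intergenic and promoter regions. Boxes give the quartiles with the median as a line, and whiskers the 5th and 95th percentiles. The median is -0.54 for the 66 regions wholly in CDS, -0.22 for the 153 partly in CDS and 0.09 for promoters.

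Regions wholly inside CDS held 14 of the 22 lower calls (21.2% of the 66) and had a median of -0.54, while regions that also reached into introns held the other 8 lower calls and both higher ones (median -0.22, 153 regions). The former were also weaker, at a median level of 7.09 against 10.2 CPM per kb. Regions in the last coding exon had a median of -0.37 with 11 of 75 lower, and those in a middle exon -0.22 with 7 of 118 lower and 2 higher. In an only coding exon the median was -0.09 with 3 of 15 lower, and in a first coding exon -0.22 with 1 of 11 lower.

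The largest gain was at Slc28a1, which encodes a sodium-coupled transporter that takes up pyrimidine nucleosides. Its region (chr7:81164311-81164761, 72.5% CDS, with its largest overlap in coding exon 13 of 17) had levels of 5.0, 6.77 and 4.11 CPM in the young samples and 17.3, 20.6, 14.7 and 10.7 CPM in the aged ones. The aged samples all lay above the young, at 15.8 ± 4.18 CPM (SD, n = 4) against 5.29 ± 1.35 CPM (SD, n = 3). The log2 fold change was 1.52 ± 0.25 (SE; edgeR, adjusted p = 0.0094). This region passed the threshold under each of the 22 alternatives run for it. The gene has 6 other accessible regions in its body outside promoters, with a median of -0.17 (log2 fold change), and none of them was called by edgeR.

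The other gain was at Rnft2, a transmembrane protein with a RING finger. The region (chr5:118236866-118237430, 53.8% CDS, coding exon 3 of 10) had 1.76, 2.27 and 2.14 CPM in young and 5.62, 5.30, 4.44 and 2.80 CPM in aged samples. The groups did not overlap, although aged replicate 4 was near the young samples. The log2 fold change was 1.129 ± 0.31 (SE; edgeR, adjusted p = 0.048), and the call held in 10 of 22 alternatives.

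Of the 13 regions in the list of zinc finger proteins, which goes by symbol, 3 fell (Zfp13, Zfp746 and Zfp672), none rose, 11 had a fold change below 0 and the median log2 fold change was -0.73. The list holds neither Mzf1 nor Rreb1. Counts in this and later lists stand beside those of all 219 coding exon regions, of which 157 (71.7%) were below 0. Among all regions 53.4% were below 0. Of the 219, 10.05% were called lower and 0.913% higher. Mzf1, a C2H2 zinc finger transcription factor, had 13.7, 14.1 and 10.5 CPM in young and 3.34, 5.30, 4.90 and 3.95 CPM in aged samples at its last coding exon (chr7:13043428-13044562, wholly CDS). The young samples all lay above the aged ones, with 12.8 ± 1.97 CPM (SD, n = 3) against 4.37 ± 0.892 CPM (SD, n = 4). The log2 fold change was -1.60 ± 0.23 (SE; edgeR, adjusted p = 0.0059), and Mzf1 was called lower in all 22 alternatives run.

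Zfp13, another zinc finger protein, showed the largest decrease, at its last coding exon (chr17:23576565-23576934). The levels were 3.33, 1.78 and 0.822 CPM in young and 0.176, 0.588, 0 and 0.127 CPM in aged samples. These rest on 88 reads in the young samples together and on 6 in the aged, with no read in aged replicate 3. The pooled ratio of aged to young was 0.103, with an exact 95% interval of 0.0369 to 0.234 that covers counting error only. The fitted log2 fold change was -3.20 ± 0.66 (SE; edgeR, adjusted p = 0.018) and the call held in 15 of 20 alternatives. With offsets on mean abundance it was lost, at a log2 fold change of -1.90. The groups were separate, with young replicate 3 closest to the aged samples.

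At Zfp746, whose product PARIS is a zinc finger repressor of Ppargc1a, the region (chr6:48063786-48064393) had 5.0, 5.37 and 2.63 CPM in young and 1.32, 1.37, 0.700 and 1.15 CPM in aged samples. All aged values were lower than the lowest young value, and the log2 fold change was -1.93 ± 0.35 (SE; edgeR, adjusted p = 0.012). Zfp672 had 7.87, 6.61 and 3.62 CPM in young and 2.81, 2.16, 3.74 and 2.04 CPM in aged samples, so that 1 aged sample lay above young replicate 3. It was called lower with a log2 fold change of -1.22 ± 0.31 (SE; edgeR, adjusted p = 0.038).

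The linker of C2H2 zinc fingers was searched on both strands in each whole region. It was found in 5 coding exon regions (2.28%) and in 22 of all 55680 regions (0.0395%). The 5 were those of Zfp13, Mzf1 and Zfp672 with 2 matches each, Zfp697 with 5 and Zfp872 with 9. The first 3 fell. Zfp697 did not pass (log2 fold change -0.23, edgeR adjusted p = 0.32), and Zfp872 had the opposite sign without passing (0.82, adjusted p = 0.079). Over the 22 regions with a match the median log2 fold change was -0.01.

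Exons of other transcription factors and of 1 chromatin regulator, Ep300, were also among the losses. Pou3f3, a POU-domain factor of neural development with a single coding exon, had 4.17, 4.04 and 1.32 CPM in young and 0.703, 1.18, 0.467 and 1.02 CPM in aged samples (chr1:42697857-42698577). The log2 fold change was -1.98 ± 0.44 (SE; edgeR, adjusted p = 0.022), with young replicate 3 close to the aged samples. This region lies 1759 bp from the start of a RefSeq transcript of 2900092D14Rik. Tbr1, a T-box factor of cortical neurons, fell by 1.33 on the log2 scale (SE 0.26; edgeR, adjusted p = 0.016), with 6.54 ± 1.03 CPM (SD, n = 3) in young liver against 2.54 ± 0.582 CPM (SD, n = 4). Both exons are rich in CpG, with ratios of observed to expected of 0.896 and 1.05. Rreb1, a zinc finger factor that binds Ras-responsive elements, was also called lower.

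Ep300, a histone acetyltransferase and transcriptional coactivator, fell at its last coding exon (chr15:81649747-81650399). The young samples had 5.09, 4.31 and 2.14 CPM and the aged ones 1.76, 0.981, 0.934 and 1.53 CPM. No aged sample reached the young range, and the log2 fold change was -1.51 ± 0.36 (SE; edgeR, adjusted p = 0.030). Of the 10 regions in the list of chromatin and transcription regulators this was the only one to pass in the edgeR fit of all samples, with a list median of -0.48 and 7 values below 0. The paralogous coactivator Crebbp had a log2 fold change of -1.23 without passing (edgeR, adjusted p = 0.094). Kmt2e had -0.89 (adjusted p = 0.075), and Arid2, a subunit of the PBAF remodelling complex, had 0.34 (adjusted p = 0.089).

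Further losses named by size were at Eppk1, which encodes the plakin epiplakin (-1.68, edgeR adjusted p = 0.032), and Rbm4, an RNA-binding splicing regulator (-1.62, adjusted p = 0.038). They also included Fbrsl1 (-1.47, adjusted p = 0.037), Ints14, a subunit of the Integrator complex (-1.45, adjusted p = 0.028), and Prf1. Prf1 encodes perforin, the pore-forming protein of cytotoxic lymphocytes. Its last coding exon had 2.31, 3.36 and 3.78 CPM in young and 1.14, 1.37, 0.700 and 1.40 CPM in aged samples, and its log2 fold change was -1.40 ± 0.35 (SE; edgeR, adjusted p = 0.034). Here young replicate 3 was the highest sample. The other regions called lower belonged to Adgra2, Mrc2, Gfod1, Dnmbp, Muc6, Gm3045, Mamdc4, Agap2 and Podnl1.

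A few losses rested on more reads. Muc6, a secreted gel-forming mucin of the stomach, had 13.4, 13.5 and 14.0 CPM in young and 6.50, 2.55, 5.14 and 7.64 CPM in aged samples over an exon of 4329 bp (log2 fold change -1.27 ± 0.26 SE; edgeR, adjusted p = 0.018). The young samples were nearly equal, while the aged ones were lower and spread. Mamdc4 had 20.5, 20.3 and 23.8 CPM in young and 13.2, 9.02, 11.7 and 9.80 CPM in aged samples (-0.96 ± 0.17 SE; edgeR, adjusted p = 0.012). Agap2, a GTPase-activating protein for Arf, had the highest level among the losses (19.4 CPM per kb), with a young mean of 29.9 ± 7.12 CPM (SD, n = 3) and an aged mean of 17.5 ± 1.33 CPM (SD, n = 4; -0.76 ± 0.17 SE; edgeR, adjusted p = 0.024). In each of the 3 the groups were separate, and young replicate 3 was the highest young sample.

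**Figure D2:**
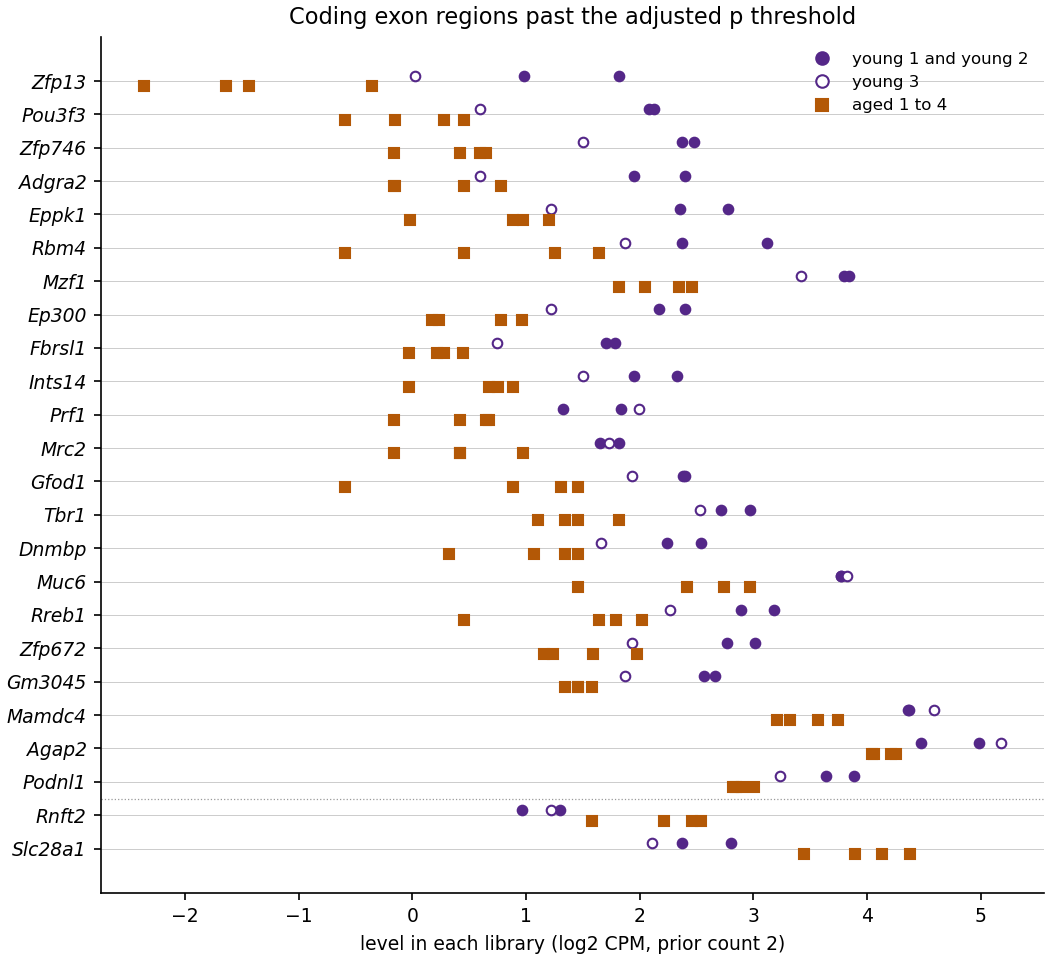
Level of each of the 24 coding exon regions past the adjusted p threshold in each library (log2 CPM, prior count 2), ordered by log2 fold change. Circles are young samples, open for young replicate 3, and squares are aged samples. The groups are separate at 20 of the 22 regions lower in aged liver and at both higher ones, and young replicate 3 is the lowest young sample at 17 of the 22.

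The 22 losses had log2 fold changes of -3.20 to -0.74. All 4 aged samples lay below all 3 young ones at 20 of them, the exceptions being Adgra2 and Zfp672. Young replicate 3 was the lowest young sample at 17 of the 22. Without young replicate 3 and aged replicate 4, 35 regions were lower (15.98%, against 5.92% of all regions) and 6 higher (2.74%, against 3.76%). The count rested on single libraries, as did that over all regions. Without young replicate 1, 1 coding exon region was lower (0.457%), against 0.239% of all regions, and without young replicate 2 these were 3 (1.37%) and 0.449%. Without aged replicate 1, 4 were lower (1.83%, against 0.490% of all), and without aged replicate 3, 3 (1.37%, against 0.853%). With aged replicates 1 and 3 summed 6 regions were lower (2.74%, against 1.24% of all), and with aged replicates 2 and 3 summed 11 (5.02%, against 1.99%). Besides Mzf1, the losses passed in 8 (Podnl1) to 21 (Mamdc4) of the 20 to 22 alternatives that gave each an adjusted p. At least 10 reads in every aged sample were found at 9 of the 22, and the lowest count was 0. The median level of the 22 was 5.28 CPM per kb and their median GC content 60.7%, against 8.95 CPM per kb for all coding exon regions and 55.5% for those not called.

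Level and base composition moved with the result. Of the 219 regions, 138 (63.0%) lay in the weakest 4 deciles of all regions by mean log2 CPM, and these held 17 of the 22 losses. Ranked by CPM per kb, 111 (50.7%) lay in the weakest 4 deciles, and these held 19 losses (17.1%, median -0.57), against 6.36% and a median of -0.29 for the others there. In deciles 5 to 10 by CPM per kb, 3 of 108 were lower (2.78%, median -0.06), against 1.22% and 0.09. In the weakest decile by log2 CPM the median log2 fold change was -0.79 for 51 coding exon regions, 21.6% of them called lower, and -0.42 for the 5517 other regions, with 9.81% called lower. From decile 5 upward, where each decile held 4 to 21 coding exon regions, the medians crossed each other. They were -0.05 against -0.14 in decile 5, -0.21 against -0.07 in decile 6, 0.015 against 0.0028 in decile 7, 0.09 against 0.08 in decile 8, -0.05 against 0.16 in decile 9 and 0.34 against 0.28 in decile 10. Of the coding exon regions in deciles 5 to 8, 5 were called lower, at shares of 14.3%, 5.56%, 4.76% and 5.88% against 3.22%, 2.79%, 2.11% and 1.19% of the others. In deciles 4, 9 and 10, with 19, 4 and 7 coding exon regions, none was called lower by edgeR, against 3.82%, 0.629% and 0.234% of the others, and 6, 0 and 0 were lower at an unadjusted p under 0.05. Among regions of the weakest 4 deciles with at least 55% GC, 16 of 75 coding exon regions were lower (21.3%, median -0.61) and 343 of 3115 others (11.01%, median -0.47). The part of level and GC content in the losses was not tested. With offsets fitted on mean abundance 4 losses and 2 gains were called, with a median of -0.11, and with offsets on GC content 25 losses, all 22 of the losses above among them, and 8 gains, with a median of -0.15.

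**Figure D3:**
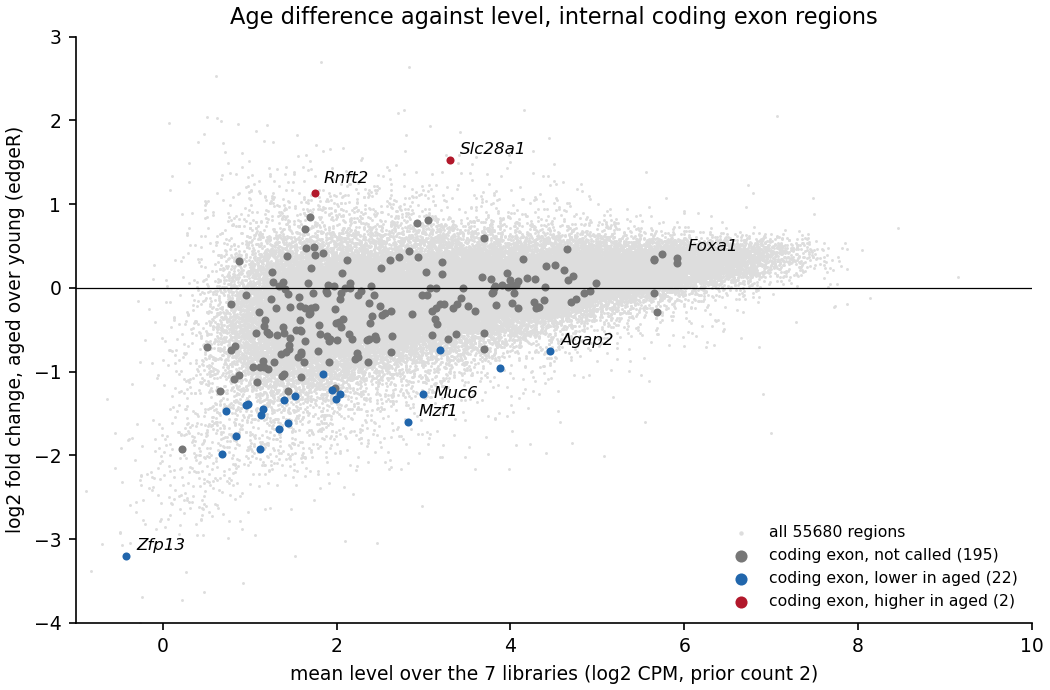
Log2 fold change, aged over young (edgeR), against mean level (log2 CPM, prior count 2) for all 55680 regions in light grey and the 219 coding exon regions in dark grey, blue where called lower and red where called higher. Most losses sit at the weak end, while Mzf1, Muc6 and Agap2 are lower and Slc28a1 higher at greater levels.

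For each library, the average log2 CPM over the coding exon regions was set against that over all other regions over 2000 bp from a TSS. The difference was -0.13, -0.18 and -0.38 in young and -0.36, -0.44, -0.44 and -0.46 in aged samples. Young replicate 3 lay within the aged range, so the groups overlapped. The means were -0.23 ± 0.13 (SD, n = 3) and -0.42 ± 0.04 (SD, n = 4), a difference of -0.19. Leaving out 1 library, a check chosen after seeing the data, gave -0.27 without young replicate 3, -0.17 without young replicate 2 and -0.14 without young replicate 1.

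**Figure D4:**
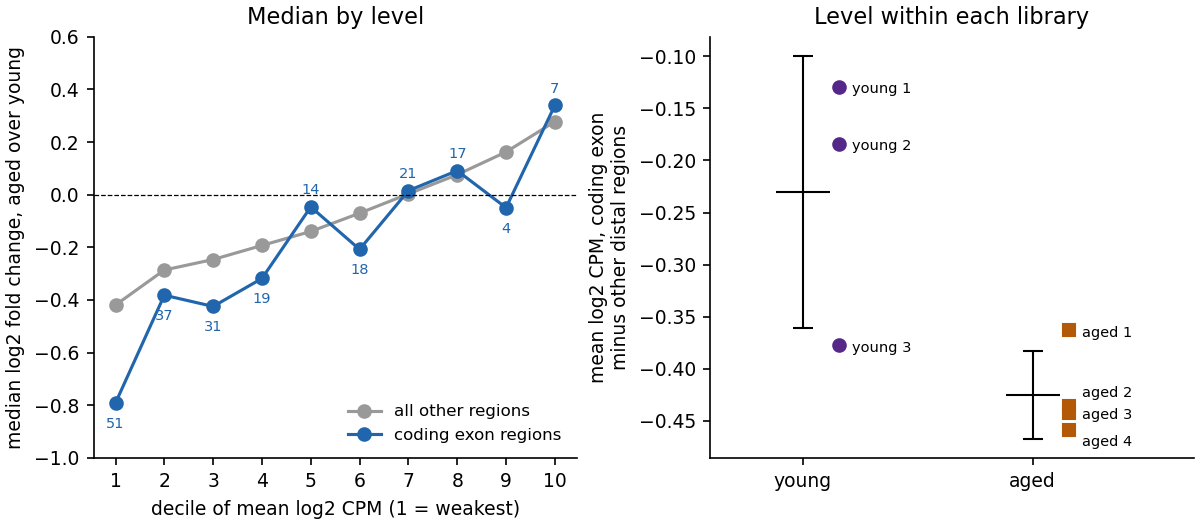
Left, median log2 fold change (aged over young) of coding exon regions in blue and all other regions in grey for each decile of regions by mean log2 CPM, with the number of coding exon regions beside each blue point. Right, mean log2 CPM of coding exon regions minus that of other regions over 2000 bp from a TSS in each library, with the mean and SD of each group. The blue line is below the grey one in the 4 weakest deciles, and young replicate 3 at -0.38 lies beside the aged samples.

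None of the 10 strongest coding exon regions passed the threshold in either direction in the edgeR fit. Their levels ran from 32.4 to 58.6 CPM per kb, above the promoter median of 20.9. They lay in Fbxo2, an F-box protein that recognises glycoproteins, Ccdc92b, Nodal, a ligand of the TGF-beta family, Nol3, an inhibitor of apoptosis, Wdr81, Med26, a Mediator subunit, 4931428F04Rik, Foxa1, Synpo and Spout1. Fbxo2 had 22.3, 22.6 and 22.5 CPM in young and 27.6, 27.3, 23.1 and 25.7 CPM in aged samples. These values did not overlap, and the log2 fold change was 0.21 ± 0.13 (SE; edgeR, adjusted p = 0.34). Foxa1, the forkhead pioneer factor of liver, had 51.3, 46.1 and 61.3 CPM in young and 80.6, 57.7, 68.9 and 62.2 CPM in aged samples over its last coding exon (0.36 ± 0.14 SE; adjusted p = 0.12). Young replicate 3 and aged replicate 2 crossed there. Synpo, which encodes the actin-associated protein synaptopodin, came nearest to the threshold with 0.41 ± 0.11 (SE; adjusted p = 0.051). Its aged samples, at 60.5 ± 5.61 CPM (SD, n = 4), all lay above the young ones, at 45.6 ± 2.79 CPM (SD, n = 3). Synpo passed as higher under some alternatives, among them DESeq2 (0.44), GC offsets (0.55) and limma voom (0.41). With GC offsets Ccdc92b (0.39) and Nodal (0.45) also passed as higher. Foxa1 did so without young replicate 3 and aged replicate 4 (0.52). Nol3 at 0.06, Wdr81 at 0.10 and 4931428F04Rik at 0.03 changed sign with some settings, Ccdc92b had 0.29, Nodal 0.35 and Med26 0.14, and Spout1 was the one with a value below 0 under TMM scaling, at -0.19.

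Among exons of secreted plasma proteins, which hepatocytes make, no region passed in the edgeR fit of all samples. These 6 regions lay in F2 (prothrombin), Mug1 (murinoglobulin), Serpind1 (heparin cofactor II), Kng1 (kininogen) and Apob (apolipoprotein B, 2 regions), of which 5 were below 0 and the median was -0.23 (log2 fold change). The F2 region, wholly inside coding exon 7 of 14, had 5.37, 5.37 and 3.95 CPM in young and 3.60, 2.35, 3.03 and 5.09 CPM in aged samples. The groups overlapped (-0.46 ± 0.29 SE; edgeR, adjusted p = 0.34). Mug1 had -0.61 (adjusted p = 0.47) and Serpind1 -0.22 (adjusted p = 0.50). These values depended on single libraries. Mug1 had -1.39 without aged replicate 4 and -1.46 with the replicate block, and passed as lower in both. Serpind1 had -0.07 without young replicate 3. The list of metabolic enzymes and transporters held 6 regions, of which Slc28a1 rose and none fell, with a median of -0.24. The next lowest adjusted p-values there were those of Ugt3a1, a glycosyltransferase (-0.60, adjusted p = 0.14), and Slc30a10, a manganese exporter (-0.76, adjusted p = 0.16).

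The list of matrix and mucin proteins held 7 regions with 1 loss, Muc6, and a median of -0.52. SCO-spondin (Sspo) had -1.05 (edgeR, adjusted p = 0.13) at 1 of its 2 regions, and tenascin X (Tnxb) -0.63 (adjusted p = 0.15). At that Sspo region aged replicate 4, at 3.82 CPM, lay within the young range of 3.40 to 4.81 CPM. The other aged samples had 0.981 to 1.40 CPM, so the value depends on that library. Among large cytoskeletal proteins 1 of 6 fell, Eppk1, with a median of -0.72 and all 6 below 0. The others included desmoplakin (Dsp, -0.83, edgeR adjusted p = 0.13). Spty2d1, caught in this list by its symbol, is a histone chaperone and no cytoskeletal protein.

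Of the 9 regions of signalling receptors and adaptors, Adgra2 fell (-1.76, edgeR adjusted p = 0.037), the median was -0.13 and 7 were below 0. Adgra2 is an adhesion receptor known from brain vessels, and its relative Adgrf1 (-0.38, adjusted p = 0.42) and Gpr171 (-0.32, adjusted p = 0.53) did not pass. The other DNA-binding transcription factors were Pou3f3, Foxa1 and Foxn2 (-0.01, adjusted p = 0.99), with 1 of 3 lower. The cadherin list held Dsg2 alone (-0.12, adjusted p = 0.79), the immune list Clec16a alone, a regulator of autophagy caught by its symbol (-0.62, adjusted p = 0.12), and the list of chemosensory receptors none. The 157 regions in no list had a median of -0.23, with 14 lower and 1 higher.

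**Figure D5:**
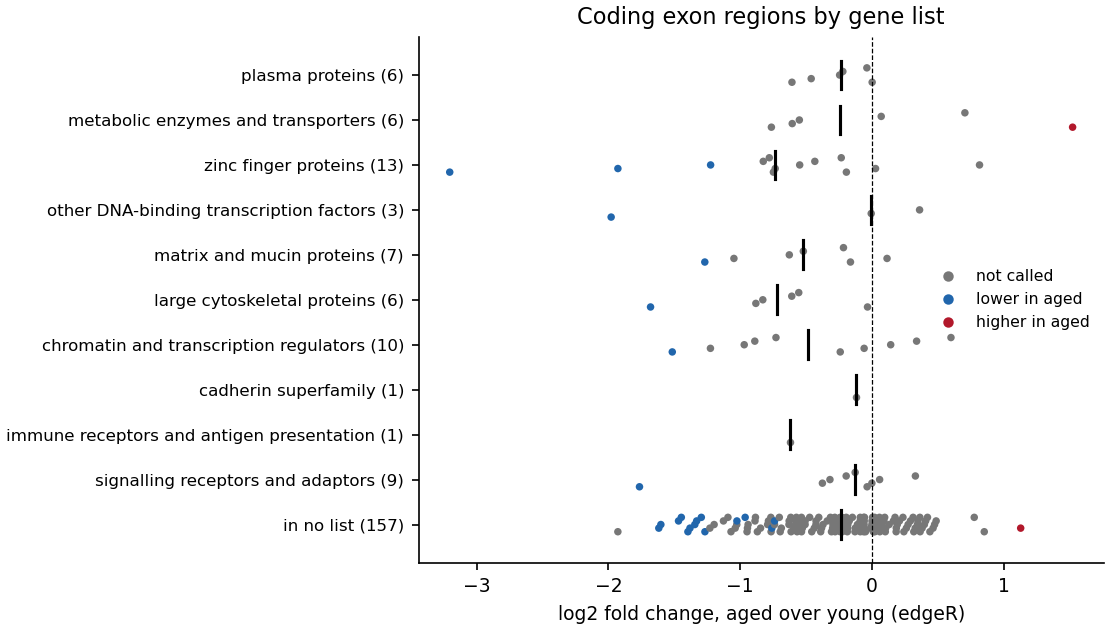
Log2 fold change, aged over young (edgeR), of each coding exon region by gene list, with the number of regions in brackets, points coloured by call and the list median as a black line. Points are spread vertically only to separate them. Zinc finger proteins have a median of -0.73 with 3 lower, and the 157 regions in no list -0.23.

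The promoters of the same genes had called shares near those of all promoters. A promoter region was present for 156 of the 210 genes, and these promoters showed a median of 0.16 (log2 fold change), with 10 higher (6.41%) and 2 lower (1.28%) by edgeR, where 4.48% of all promoter regions were higher and 2.06% lower. A value above 0 was found for 73.1% of them and for 61.1% of all promoter regions. For each gene the promoter region with the highest mean log2 CPM was taken. All promoter regions, in contrast, include weaker ones and those at any annotated TSS, so the sets are unlike. For the regions that fell, 14 genes had a promoter region, with a median of 0.25. Of these promoters 12 had a value above 0, that of Rreb1 was called higher (0.41, adjusted p = 0.040) and none was called lower. At Mzf1 the promoter had 0.26 (adjusted p = 0.20) while the exon had -1.60. Among the 9 genes with 2 coding exon regions, neither region passed at any. The 2 regions of Tns3 had -0.89 and -1.07, while those of Jmjd1c had -0.95 and -0.06 and those of Synpo -0.17 and 0.41. Apob, Lrp2, Notch3, Sspo and Zeb2 also held 2 regions each.

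Short motifs of transcription factors were searched on both strands in the central 300 bp of each region. The AP-1 site TGANTCA was present in 16 coding exon regions (7.31%), against 11.1% of intronic, 5.10% of promoter and 9.22% of all regions. The FOXA site TGTTTAC was present in 5 (2.28%), against 7.51% of intronic, 2.90% of promoter and 5.93% of all regions. The C/EBP site TTGCNNAA was found in 35 (15.98%, against 17.1% of intronic, 8.25% of promoter and 14.6% of all regions), among them Apob, Kng1, Ugt2b36, Ugt3a1 and Adh5. The core of the CTCF motif was found in 10 (4.57%, against 2.18% of intronic, 3.31% of promoter and 3.03% of all regions). CACGTG was found in 12 (5.48%, against 5.20% of intronic, 7.05% of promoter and 5.83% of all regions), Rnft2 among them. CAAAGTCCA, an HNF4 site, was found in 2 (0.913%, against 1.58% of intronic, 0.532% of promoter and 1.40% of all regions). The NRF1 motif was found in Synpo alone and the HNF1 motif in none. These matches are descriptions of the letters and not sites.

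Some regions are uncertain. Another genomic place matching at least 80% of the region with 95% identity or more was found for Eppk1, Hsd3b3, Tnxb, Trim12a and Slc22a26, and for the longest CDS stretch alone also for Mug1 and Rbm10. Among these only Eppk1 was called. The CDS of 2 genes overlapped at Rbm4 and Srcap, and CDS on both strands at none. Transcript starts of RefSeq, predicted ones included, lay within 2000 bp of 11 regions and within 200 bp of 4 (Nova2, Pura, Bach2 and Col15a1). Without the 11, 21 regions were lower and 2 higher.

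Log2 fold changes beside the limits of the definition are given as a description. Just inside the limit of 50% CDS were Pura at -0.06 and a Zeb2 region at 0.03, and just outside it Sec16b at -0.97 (edgeR, adjusted p = 0.052) and Tnrc6a at 0.10. Beside the limit of 2000 bp from a TSS, Rax had 0.02 and Neu1 0.10 inside, and Mief2 0.21 and Chrm1 -0.55 outside. Beside the limit of 500 bp from a gene end, Catip had -0.37 and Kctd6 -0.30 inside, and Zdhhc14 -0.81 and Pkhd1 0.20 outside. None of these 12 regions passed the threshold.

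Promoters of cell type markers were read as a check on the tissue. All 5 hepatocyte markers (Alb, Apoa1, Ttr, Cps1, Hnf4a) had a promoter region, with summed levels of 384.6 to 460.1 CPM in young and 505.0 to 596.2 CPM in aged samples, and Apoa1 was called higher. Promoter regions were present for 1 of 5 Kupffer cell, 3 of 5 sinusoidal endothelial, 2 of 5 stellate cell, 2 of 4 cholangiocyte and 1 of 4 T cell markers, none of them called, and for none of the B cell and neutrophil markers. The stellate cell sum was 20.9 to 24.0 CPM in young and 11.9 to 19.0 CPM in aged samples. Most of it was Reln (17.4 to 21.1 and 9.10 to 15.3 CPM), while Lrat overlapped between the ages. The T cell sum, from Lck alone, was 10.6 to 12.8 and 10.7 to 13.6 CPM. Sums also overlapped for Kupffer cell (2.22 to 2.65 and 0.588 to 2.80 CPM), sinusoidal endothelial (59.4 to 65.4 and 48.4 to 80.7 CPM) and cholangiocyte markers (41.7 to 49.5 and 36.7 to 54.3 CPM). The part of cell composition in the coding exon results was not tested.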

How the data were processed

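The study used ATAC-seq of liver from male C57BL/6N mice, with 3 young and 4 aged samples (3 and 18 months). The authors deposited raw counts per consensus region, without normalization. By the submitters' processing notes and the study's methods, reads were trimmed with cutadapt 1.13 and aligned to GRCm38 with Bowtie2 2.4.1, duplicates and mitochondrial reads were removed, peaks were called per library with MACS2 2.2.7, and reads were counted with featureCounts in blacklist-filtered regions found in at least 2 libraries. Reads at near-identical sequences could have been lost or split in that step. All 7 columns were matched to samples by name, and 0 were left over. The sum of counts ran from 4474652 to 25461110 per sample, so a region at the median count of 35 in the shallowest library is less certain than one at 241 in the deepest. Counts carry no molecular identifiers, and the counting interval given covers counting error only.

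Regions were annotated with GENCODE M21 (Python 3.11.15, pandas 2.3.3), taking positions as 1-based and inclusive as the region names give them. Sequence, GC content and copies came from GRCm38 (samtools 1.23.1, pysam 0.24.0, minimap2 2.31). Age was tested over all 55680 regions with edgeR 4.0.16 in R 4.3.3 (TMM, quasi-likelihood, age as the only factor, Benjamini-Hochberg adjustment, 0.05), and log2 CPM used a prior count of 2. The SE of a log2 fold change is not an output of this test. It was computed as the absolute log2 fold change divided by the square root of the test's F statistic. The fit was tested on simulated counts. Alternatives were DESeq2 1.42.0, limma 3.58.1 (voom), total counts, loess offsets (span 0.3) on mean abundance or GC content, filters, single libraries left out, summed aged pairs, a replicate block, a threshold of 0.01 and other limits of the definition.

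The definition of the regions, the 11 gene lists and the tests were chosen with earlier results of these data known. A region's gene was the one whose CDS covered most of it. Genes named with values were the 10 largest gains and losses past the threshold with separate groups (2 gains were found), the 10 highest levels per kb, the 3 lowest adjusted p-values in each list, and neighbours of the limits. Some genes that this rule takes are not reported here. Other genes singled out were chosen after their values were seen. The study's RNA-seq, ChIP-seq and nascent transcription data were not used here.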

Additional observations from a re-analysis of the deposited data

Results flagged for a closer look

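In the 41 regions taken by the rule for named genes and the level within each library, 2 values stood out because 1 of the 4 aged samples lay far from the other aged samples by Dixon's test. Chance flags about 1 in 20 groups. At the stronger Synpo region aged replicate 4 was the low one, at a log2 CPM of 5.71. At Foxn2 aged replicate 1 was the high one, at a log2 CPM of 3.34. Neither region was called in the edgeR fit.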

How the results depend on the processing

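The count of coding exon regions lower in aged liver, 22 in the edgeR fit, stayed within 1.5 times of that under 14 settings that did not leave out a library. Among them was the limit of 80% in CDS, where 16 of only 99 regions were lower. The count was 4 with offsets on mean abundance, 8 with at least 10 counts in every sample (5.48%, against 1.69% of all regions), 6 with aged replicates 1 and 3 summed, 11 with aged replicates 2 and 3 summed, 35 without young replicate 3 and aged replicate 4 (a setting chosen after seeing the data, as were those of RefSeq starts), 1 at a threshold of 0.01 and 12 for the 135 regions over 5000 bp from a TSS. Leaving out 1 library gave 1 (0.457%, without young replicate 1, against 0.239% of all regions) to 26 (11.9%, without aged replicate 4, against 4.67%). The count of higher regions, 2, was 5 with DESeq2, 1 with total counts and 8 with offsets on GC content. It was 1 with at least 10 counts in every sample (0.685%, against 1.11% of all regions). With aged replicates 1 and 3, 2 and 3 or 3 and 4 summed it was 1 (0.457%, against 0.483%, 1.26% and 1.31%). It was 5 with aged replicates 2 and 4 summed (2.28%, against 3.89%) and 6 without young replicate 3 and aged replicate 4. At the 0.01 threshold it was 1, for the 99 regions at least 80% in CDS 0, and for the 135 over 5000 bp from a TSS 1. Leaving out 1 library gave 1 to 6, the 6 without aged replicate 4 (2.74%, against 2.93%). With the replicate block 5 regions were higher and 21 lower (2.28% and 9.59%, against 2.67% and 4.66% of all regions), 16 of the latter shared with the unpaired fit. Aged replicate 4 has no young sample in its block and so adds nothing to the age difference in that fit. Deviations from the group means had correlations of -0.119, 0.056 and 0.03 between same-numbered samples. The largest correlation, 0.232, was between young replicate 1 and aged replicate 4. With so few libraries these values cannot settle whether the numbers mark a pairing. The median log2 fold change of -0.24 became -0.11 with abundance offsets, -0.15 with GC offsets, -0.15 with at least 10 counts in every sample and -0.42 for regions at least 80% in CDS, and -0.30 to -0.24 when 1 library was left out. The level within libraries, -0.19 between the groups, ranged from -0.27 to -0.14 when 1 library was left out, also chosen after seeing the data. A minimum in every sample removes regions that fell, so the filter of 10 counts, which left 146 regions, lowers the count by construction. For the other settings the cause was not tested.

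Slc28a1 and Mzf1 passed the threshold under all 22 alternatives. The 15 calls taken by the rule for named genes kept their direction under every alternative run for them, and in 99 of 319 cases no longer passed. Signs changed only at named regions that were never past the threshold in the edgeR fit. The log2 fold change of Nol3 became -0.056 with total counts, -0.077 with abundance offsets, -0.030 without young replicate 3 and aged replicate 4, and -0.037 to 0.28 when 1 library was left out. Wdr81 had -0.026 with total counts and -0.036 to 0.28 when 1 library was left out. 4931428F04Rik had -0.089 with total counts, -0.0093 with at least 10 counts in every sample, and -0.12 to 0.12 when 1 library was left out. Foxn2 had 0.030 with DESeq2, 0.12 with abundance offsets, 0.060 with GC offsets, 0.087 with limma voom, 0.018, 0.027 and 0.019 with aged replicates 2 and 3, 2 and 4 or 3 and 4 summed, 0.0093 with the replicate block, 0.088 without young replicate 3 and aged replicate 4, and -0.14 to 0.082 when 1 library was left out. Dsg2 had 0.049 with GC offsets, 0.0095 with the replicate block, 0.17 without young replicate 3 and aged replicate 4, and -0.34 to 0.043 when 1 library was left out. The weakest regions set the limit of depth, with 2 coding exon regions at 0 counts in aged replicate 3.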

Other observations

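Coding exons of further liver enzymes, which no list held and which were chosen after their values were seen, had values on both sides of 0 and none passed the threshold. Adh5, an alcohol dehydrogenase also known as a formaldehyde dehydrogenase, had a log2 fold change of 0.36 with every aged sample above every young one (edgeR, adjusted p = 0.31). Rgn (regucalcin), an abundant hepatocyte protein, had 0.44 with the same order (adjusted p = 0.23), and Adh4 had 0.48 (adjusted p = 0.51). Hsd3b3, a steroid dehydrogenase with a near-identical copy, had -0.94 (adjusted p = 0.18), Glyat, a glycine acyltransferase, -0.70 (adjusted p = 0.31), and the arylamine acetyltransferase Nat2 -0.09 (adjusted p = 0.89). Besides Adh5 and Rgn, the regions with separate groups and higher levels in aged liver that did not pass in the edgeR fit were those of Arid2, Ccdc92b, Ears2, Fbxo2, Lrrn4, Med26, Synpo and Ttc21a.

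None of the exons of 4 further developmental transcription factors, picked after their values were seen, passed the threshold. Sp9 had a log2 fold change of -0.87 (edgeR, adjusted p = 0.16), Shox2 -0.85 (adjusted p = 0.051) and Dmrt3 -0.24 (adjusted p = 0.54), while Rax had 0.02 (adjusted p = 0.96). Over all 49 regions with a CpG ratio of 0.6 or more the median was -0.37 with 7 lower (14.3%, where 3.30% of all regions were lower) and none higher. Over the 94 with a ratio of 0.3 to 0.6 it was -0.22 with 9 lower (9.57%) and 1 higher, and over the 76 with a ratio under 0.3 it was -0.23 with 6 lower (7.89%) and 1 higher.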
